A study of Homo sapiens with 7 samples.

Results

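A joined ID is a gene identifier that holds an ampersand, such as ENSG00000111669.15&ENST00000613953.4 for TPI1, where the other rows of the same gene carry the plain identifier alone. All isoform rows whose gene identifier contained an ampersand were taken, which gave 440 rows with 440 different joined IDs among the 386982 isoform rows. They belonged to 397 of the 14294 genes. The joined rows held 2.76% to 3.31% of the listed reads of a library, and they held most of the reads of several very abundant genes, among them CALM2, TPI1, LDHB and MDH1.

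The data were full-length-read counts from long-read sequencing of polyadenylated RNA of HUES66 cells. HUES66 is a human embryonic stem cell line, an established one. There were 7 libraries, 1 per group: a control labelled WT, and 6 labelled as knockdowns of RBFOX2 isoforms, here named by their G numbers as G12 (id 178135), G11 (id 178136), G13 (id 178145), G14 (id 178146), G3 (id 178147) and G5 (id 178149). All 7 cultures carried the description piggyBac, a transposon used to insert transgenes, and all, the control included, had 1 µg/ml doxycycline and a time point of 24 h. The series names Cas13d, a nuclease that is guided by RNA to cut RNA. The sources used here do not say which isoform an id denotes or whether a line is a single clone.

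As background, a gene can give rise to several annotated transcripts that share every splice junction and differ in where they start or end. A long read that covers all the junctions of such a set can match each of them equally well. Alternative starts and alternative polyadenylation sites are common sources of such sets, and different ends can change the coding sequence or place a stop codon where nonsense-mediated decay acts on the RNA.

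The shallowest library was the control, with 16801850 reads, and the deepest was G12, with 26678551. Every listed row had at least 1 control read, and isoforms found in G libraries alone are not analysed here. Levels are in TPM, which in this table is the read count scaled to the depth of the library without regard to transcript length, so levels of different genes compare numbers of molecules read. With 1 library per group, differences have no replicate check and no p-value is given. Intervals are 95% intervals that cover counting error only. RBFOX2 itself had no joined ID. Its total was 107 TPM in the control and lay between 42.1 TPM in G3 and 106 TPM in G14. RBFOX2 encodes a regulator of splicing. Of 10 stem cell markers 9 were listed, and their sum was 1622 to 2077 TPM, with SOX2 not listed. Single markers moved in opposite directions within this sum. POU5F1 held 915 TPM in the control and 377 to 588 in the G libraries, and NANOG 10.0 and 3.49 to 5.54. L1TD1, DPPA4 and TDGF1 were above the control in every G library, and the other listed markers were mixed. Of 8 mesoderm and endoderm markers 4 were listed, and they summed to 0 to 0.298 TPM. The neural list, with TUBB3 and DCX listed out of 5, summed to 41.7 to 122 TPM, with PAX6, SOX1 and NEUROG2 not listed. The fibroblast list, with COL1A1 and COL1A2 listed out of 5, summed to 4.21 to 38.5 TPM, highest in G3 and lowest in G13. No marker gene had a joined ID.

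In all 440 rows the full row identifier named several reference transcripts in turn, each with its gene, and the joined ID was the stretch between its first pair of separator marks. It therefore ran from the first gene to the second transcript. No row outside the 440 had an ampersand in its row identifier. Of the 440 rows, 387 named 2 transcripts, 52 named 3 and 1 named 4, so 53 rows named more transcripts than their joined ID shows. The transcript column always gave the first. All 440 rows carried reference transcripts and none a hashed name, the form that 355289 rows without a reference transcript ID had.

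The named transcripts of a joined row had the same introns where the same annotation versions could be compared. In 131 rows GENCODE 29 (GRCh38) held every named transcript in the same version, and in all 131 the chains of introns were identical. With transcripts of any version, which may differ from those counted, 286 rows had at least 2 in GENCODE 29 and 266 of these had identical chains. Among 15810 plain reference rows held there in the same version, with introns, 0 shared their chain with another such row. The median joined row of the 131 had 8 exons, and the range was 2 to 23. The transcripts differed at the 5′ end in 118 rows, by a median of 66 nt over the 131 and by at most 4897 nt. They differed at the 3′ end in 120 rows, by a median of 206 nt and by at most 4575 nt, and by 1000 nt or more in 28 rows against 5 rows at the 5′ end. Both ends differed in 110 rows, and 3 rows had the same ends.

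The annotated coding region differed between the transcripts of 96 of the 131 rows. The other 35 include the 1 row with no coding transcript. A protein-coding transcript was joined to one annotated for nonsense-mediated decay in 74 rows. All transcripts were coding in 47 rows, and all were annotated for decay in 9. A joined count in those 74 rows does not separate the annotated coding RNA from the annotated decay target.

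The last junction between coding exons shows what the transcripts of a joined row share. The sequences below are from GENCODE 29 transcripts (GRCh38), with 20 bases from each exon, and capitals mark the 4 bases on either side of the junction. TPI1, triosephosphate isomerase of glycolysis, PSMC3, an ATPase of the proteasome cap, GPN1, a GTPase needed for nuclear import of RNA polymerase II, and DDOST, a subunit of the oligosaccharyltransferase that glycosylates proteins, are 4 examples chosen after their values were seen. They come from the rows for which GENCODE 29 held every named transcript, some in another version than the one counted, and each of those transcripts has the intron.
TPI1: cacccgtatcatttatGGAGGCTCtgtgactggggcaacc
PSMC3: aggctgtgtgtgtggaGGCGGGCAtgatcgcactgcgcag
GPN1: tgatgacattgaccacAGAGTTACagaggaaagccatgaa
DDOST: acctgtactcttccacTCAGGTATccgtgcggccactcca
The introns removed there are chr12:6870137-6870264 on the plus strand for TPI1, between exons 6 and 7, chr11:47418946-47419115 on the minus strand for PSMC3, between exons 11 and 12, chr2:27647944-27650114 on the plus strand for GPN1, between exons 13 and 14, and chr1:20652529-20652620 on the minus strand for DDOST, between exons 10 and 11. The junction was present in 3 of 3 transcripts for TPI1, PSMC3 and GPN1 and in 2 of 2 for DDOST.

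In 5 of the 440 rows the joined transcripts belonged to 2 genes, and the row was filed under the first. PYURF and PIGY share a row. PIGY encodes a subunit of the enzyme that starts synthesis of glycosylphosphatidylinositol anchors. The first 45 coding bases of each gene, with the start codon in capitals, are shown because they mark separate coding starts within the span of 1 row. They are followed by those of the CCDC103 and FAM187A row. CCDC103 encodes a factor for dynein arms of cilia.
PYURF: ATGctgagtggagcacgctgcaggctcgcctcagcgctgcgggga
PIGY: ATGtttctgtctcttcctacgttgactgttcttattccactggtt
CCDC103: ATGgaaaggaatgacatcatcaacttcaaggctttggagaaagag
FAM187A: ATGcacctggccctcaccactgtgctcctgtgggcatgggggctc
The PYURF row spans chr4:88520988-88523829 on the minus strand, where the PYURF start codon begins at 88523700 and that of PIGY at 88521789. The CCDC103 row spans chr17:44899719-44905389 on the plus strand, with starts at 44900999 and 44903830.

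The PYURF row held 412 TPM in G13, 379 in G12, 346 in G11, 319 in the control, 309 in G14, 296 in G5 and 272 in G3. PYURF had no other row, and the 2 rows of PIGY alone held 7 to 31 reads in a library, against 4856 to 10124 in the shared row. The SAGSIN1 row, which joined a transcript of FAM220A, held 72.7 TPM in G14, 68.3 in G5, 66.6 in G3, 65.5 in G11, 55.0 in G12, 52.1 in the control and 47.0 in G13. FAM220A had no row of its own, so all RNA listed for it stood under SAGSIN1.

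The PTP4A1 row joined a transcript of this protein tyrosine phosphatase with one of ENSG00000285976. It held 244 TPM in G5, 222 in G11, 218 in G14, 199 in G3, 184 in the control, 181 in G13 and 171 in G12. The second gene had 13 rows of its own with 249 to 600 reads, while PTP4A1 had none. The CCDC103 row held 21 to 51 reads in a library, or 0.965 TPM in G13 to 2.00 TPM in G5, beside 3 plain rows for each of its 2 genes. The GDF1 and CERS1 row had 1 read in the control, 3 in G3 and 0 in the other 5 libraries, which is at or under the floor of 3 reads in every library. GDF1 encodes a ligand of the TGF-beta family and CERS1 a ceramide synthase.

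Another 19 rows joined the X and Y copies of a transcript in the pseudoautosomal region, which is shared between the sex chromosomes, and these rows were listed on X. The 5 with the highest mean TPM were of SLC25A6, CD99, ASMTL, DHRSX and again CD99. SLC25A6 encodes an ADP/ATP carrier of the inner mitochondrial membrane and CD99 a surface glycoprotein. The copies are identical to the counting, so their reads cannot be assigned to a chromosome.

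Joined rows were few among reference rows but well filled. They made up 1.39% of the 31693 rows with a reference transcript and held 3.12% to 3.74% of the reads of such rows. The median joined ID had a mean of 2.92 TPM over the 7 libraries, against 0.974 TPM for the median plain reference row. A mean of at least 1 TPM was reached by 285 of 440, of at least 5 by 190, of at least 100 by 50 and of at least 1000 by 5. Just inside the limit of 1 TPM were LYNX1 at 1.02 and AP2B1 at 1.01, and just outside were PACSIN1 at 0.988 and LMCD1 at 0.982. Reads were found in all 7 libraries for 361 joined IDs, and the 79 others all had a mean below 1 TPM.

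As a share of listed reads the joined rows stood at 3.31% in G13, 3.25% in G12, 3.15% in the control, 3.03% in G11, 2.89% in G14, 2.88% in G5 and 2.76% in G3. G13 and G12 were above the control and the other 4 G libraries below it. The counting intervals are no wider than 0.0167 percentage points in any library, and the order says nothing of how replicate cultures would vary. The 12 most abundant joined IDs held 55.3% of joined reads in G3 and 66.4% in G13, so these shares move with a small number of genes.

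A total of 380 genes had both joined and plain rows, 16898 plain rows in all. Of those, 1071 had a reference transcript and 15827 a hashed name. Over these genes the joined rows held 54.9% of the reads in G13, 54.8% in G12, 54.5% in the control, 51.0% in G11, 49.9% in G3, 49.7% in G14 and 49.6% in G5. The control, G12 and G13 lay near 55% and the other 4 libraries near 50%. A sum over plain IDs alone therefore misses about as many reads of these genes as it holds. Listed reads were 16801842 of 16801850 in the control, 22478603 of 22794343 in G13 and 26292182 of 26678551 in G12. The shares of the G libraries leave the unlisted reads out, so the small excess of G12 and G13 over the control in the share within these genes is not resolved. Scaled to all reads, unlisted ones included, the 440 joined rows held 32684.9 TPM in G13, 32056.4 in G12 and 31504.5 in the control.

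**Figure D1:**
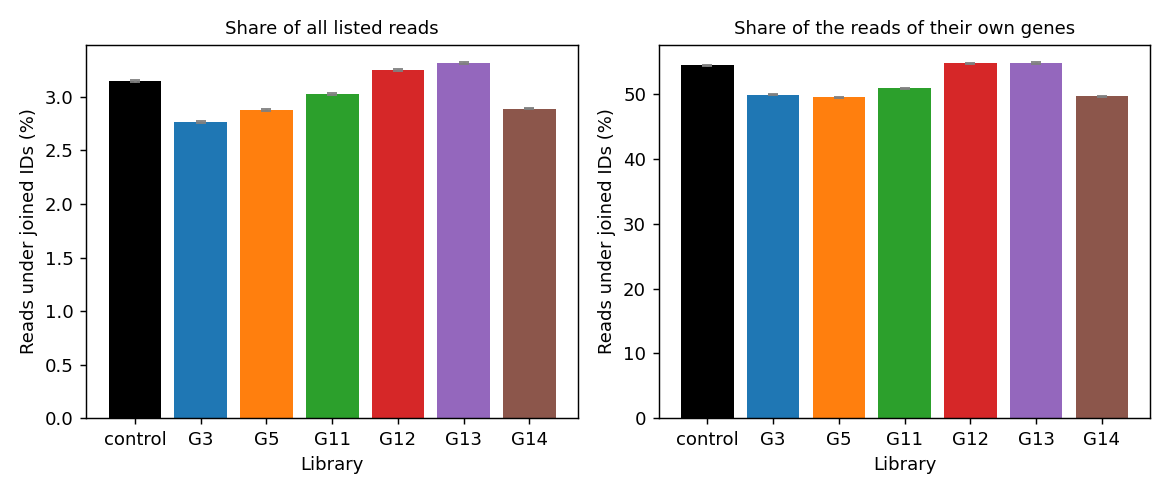
Reads under joined IDs as a percent of all listed reads (left) and of the reads of the 380 genes that have both kinds of row (right). Each bar is 1 library and the grey marks are 95% Wilson intervals for counting error. The left bars run from 2.76% in G3 to 3.31% in G13, and the right bars from 49.6% in G5 to 54.9% in G13.

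Many genes lay at either end of the scale. Of 308 genes with a mean of at least 5 TPM and plain rows, 142 had at least 50% of their reads under joined IDs on average over the 7 libraries, 67 at least 90% and 6 at least 99%. At the other end 116 genes had under 10% and 49 under 1%. The median gene had 38.2%. With the 3 genes of at least 5 TPM that had no plain rows, 311 genes reached this level. Plain rows alone gave 68 of the 311 less than 5 TPM and 23 less than 1 TPM, these 3 included. The full level was at least 2 times the plain level in 141 of the 308 genes and at least 10 times in 67.

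**Figure D2:**
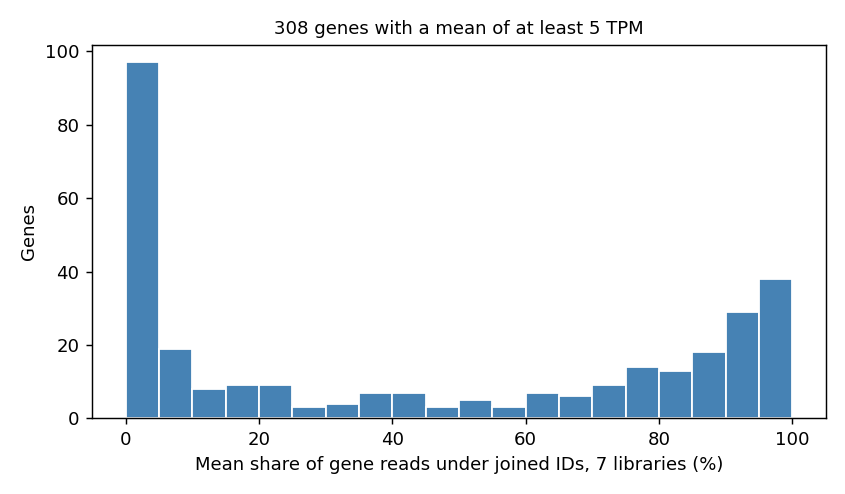
Number of genes (vertical axis) by the mean share of their reads under joined IDs over 7 libraries (horizontal axis, percent, bins of 5 points). The 308 genes pile up at both ends, with 116 below 10% and 67 at or above 90%.

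Abundant genes stood at both ends. KPNA2, an importin that carries proteins into the nucleus, had a mean of 3480.2 TPM, of which 0.415% stood under its joined ID. FDFT1, squalene synthase, had 0.0140% and ATP5F1A, a subunit of ATP synthase, 0.0475%, with means of 2171 and 1181 TPM. HNRNPC, an RNA-binding protein of pre-mRNA particles, had 0.507%. These 4 were chosen after their values were seen, as the most abundant genes with under 1%.

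The 5 genes with plain rows and the highest share were SAGSIN1, PLEKHF2, DDOST, SLC25A6 and LAP3. The joined share ran over the libraries from 99.5% to 100% for SAGSIN1, and from 99.1% to 100% for PLEKHF2, an endosomal protein. DDOST had 99.2% on average. SLC25A6 ran from 98.9% to 99.3% and LAP3, a leucine aminopeptidase, from 98.4% to 99.4%. Genes with joined rows only numbered 17, of which PYURF, PTP4A1 and SWSAP1, a protein of homologous recombination, reached 5 TPM. SWSAP1 had 17.7 TPM in the control, 12.9 in G13, 11.2 in G12, 10.5 in G11, 8.16 in G14, 7.98 in G5 and 7.62 in G3.

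Of the 4 most abundant joined IDs, 3 were of enzymes of energy metabolism. TPI1 lies at chr12:6867431-6871004 on the plus strand, and its joined row named 3 transcripts. It held 5767 TPM in the control, 4171 in G12, 4069 in G13, 3999 in G3, 3111 in G11, 3080.4 in G5 and 2377 in G14. The control was the highest and G14 the lowest. Its 152 plain rows summed to 33.7 TPM in G5 to 78.8 TPM in the control, so 98.3% to 98.9% of TPI1 stood under the joined ID. LDHB, a lactate dehydrogenase subunit at chr12:21635333-21657852 on the minus strand, held 3684 TPM in the control, 3272 in G3, 3217 in G12, 3184 in G13, 3096 in G5, 3059.9 in G11 and 2474 in G14. All 6 G libraries were below the control. Its joined share was 97.5% to 98.3%.

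MDH1, cytosolic malate dehydrogenase at chr2:63588524-63607206 on the plus strand, held 2358 TPM in G13, 2246 in G12, 1921 in G11, 1741 in the control, 1703 in G14, 1609 in G5 and 1279.8 in G3. G13 was the highest and G3 the lowest, with the control between them. TPI1, LDHB and CALM2 have processed pseudogenes in the human genome, and how the counting treated reads that match such copies is not given in the sources used here, so their levels are uncertain in that respect.

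CALM2 encodes calmodulin, the calcium sensor, and lies at chr2:47160076-47176581 on the minus strand. Its joined ID was the highest on average, with 6104 TPM in G13, 5659 in G12, 4775 in G11, 4456 in the control, 4238 in G14, 3823 in G5 and 2463 in G3. The joined share stayed within 97.0% to 97.2% in spite of a 2.48-fold spread of its level between G3 and G13. The plain CALM2 rows ran from 77.3 TPM in G3 to 183 TPM in G13.

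The rest of the top 12 had mixed functions. DCAF13, which acts in assembly of the small ribosomal subunit, held 1334 TPM in G14, 1221 in G13, 1159 in G12, 1138 in G11, 979 in G5, 794 in G3 and 753 in the control. All 6 G libraries were above the control. MCM3, a subunit of the replicative helicase, held 1181 TPM in G14, 924 in G12, 913 in G11, 870.0 in G5, 867 in G13, 706 in G3 and 534 in the control, lowest in the control and highest in G14. EIF3L, a subunit of an initiation factor of translation, ran from 395 TPM in the control to 559 TPM in G14.

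GPN1 held 628 TPM in G14, 507 in G13, 465 in G12, 444 in G11, 370.2 in G5, 277 in G3 and 246 in the control, again lowest in the control and highest in G14. COMMD10, a protein of the Commander complex that recycles membrane cargo, held 729 TPM in G14, 663 in G13, 618 in G12, 557 in G11, 452 in G5, 356 in the control and 295 in G3. G3 was below the control here and the other 5 G libraries above it. ZFAND6, a zinc finger protein, ran from 428 TPM in the control to 795 TPM in G14 and was the member of the top 12 with the lowest joined share, 71.8% to 73.6%.

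PSMC3 ran from 519 TPM in G3 to 824 TPM in G13 and DDOST from 494 TPM in G3 to 754 TPM in G13. In 11 of the top 12 the joined share was at least 84.4% in every library, the exception being ZFAND6.

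**Figure D3:**
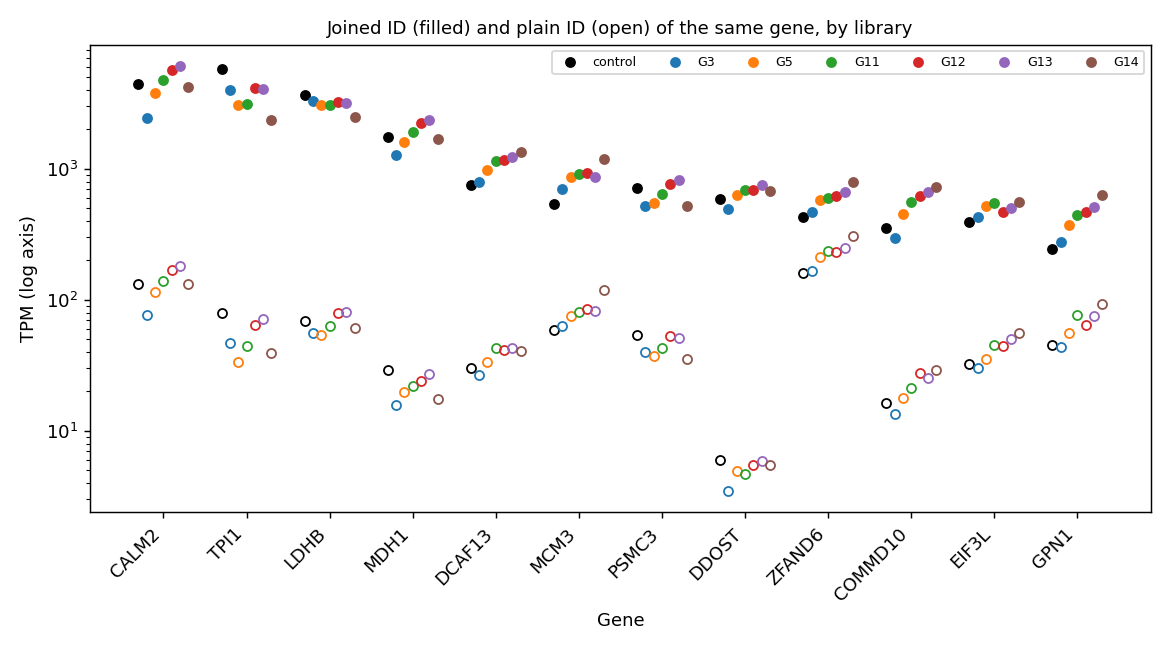
TPM on a log axis of the 12 joined IDs with the highest mean (filled points) and of the plain rows of the same gene (open points), with a colour per library. Joined points lie above plain points for all 12 genes in all 7 libraries, narrowly for ZFAND6 and by far for TPI1, DDOST and MDH1.

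Counted by symbol prefix, joined IDs were found for 4 of 49 genes of the proteasome, 6 of 96 of the respiratory chain and 2 of 32 HNRNP and SRSF splicing factors. They were also found for 14 of 273 genes with the prefix SLC, SLC4A1AP included, and 5 of 195 TMEM genes. Of the ZNF zinc finger genes 6 of 485 had one, and of the cytosolic ribosomal protein genes 1 of 84, RPL36A. None was found among 77 mitochondrial ribosomal protein genes, 6 SNHG, 44 LINC, 23 protocadherin, 1 HOX and 93 antisense genes. Over all genes the share was 2.78%. These counts describe the table and were not tested.

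The proteasome genes show how far the share differs within a complex. The joined rows of PSMC3, PSMD8 and PSMC6 held 93.5%, 96.4% and 96.9% of their genes, while that of PSMA6, a subunit of the core, held 0.894%. PSMD8, of the cap, held 562 TPM in the control, 393 in G12, 383 in G13, 327 in G3, 311 in G11, 285 in G5 and 215 in G14. PSMC6, an ATPase beside PSMC3, ran from 148 TPM in G12 to 230.1 TPM in G3. PSMD8 was highest in the control, PSMC6 in G3 and PSMC3 in G13, so the joined rows of 1 complex did not share an order of libraries.

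In the respiratory chain NDUFA6, a subunit of complex I, had 97.5% of its reads under the joined ID and ran from 130.2 TPM in G5 to 243 TPM in G12. COX7A2, of cytochrome c oxidase, had 77.8% and held 25.8 TPM in the control, 12.9 in G13, 10.8 in G11, 9.86 in G12, 8.40 in G3, 7.83 in G14 and 7.46 in G5. All 6 G libraries were below the control. HNRNPDL, a regulator of splicing with 2 joined IDs, had 70.0% under the larger, which ran from 139.6 TPM in G14 to 281 TPM in G3.

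Most genes with joined IDs had 1, namely 362 of 397, while 29 had 2, 5 had 3 and 1 had 5. The gene with 5 was SUMF2, a paralog of the enzyme that activates sulfatases. Its 5 joined IDs had means of 70.5, 5.04, 1.12, 0.702 and 0.168 TPM, and together they held 81.3% of SUMF2 in the control and 83.3% to 86.6% in the G libraries, beside 73 plain rows. CD99 had 3, all joining X and Y copies, with means of 111, 13.6 and 5.95 TPM and 97.9% to 98.8% of the gene. MKNK1, a kinase that phosphorylates the cap-binding factor eIF4E, had 3 with means of 4.01, 3.71 and 0.134 TPM, which held 35.2% in G14 to 45.1% in G13. CD99 and MKNK1 were taken from the genes with 3 by order of identifier.

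Each G library was set against the control for joined IDs with a mean of at least 1 TPM, and a 2-fold difference of TPM + 0.5 counted as a call. In G3, 13 of 285 joined IDs were at least 2-fold higher (4.56%) and 15 lower (5.26%), against 2.49% higher and 5.19% lower among 10241 plain gene IDs. In G5, 2 were higher (0.702%) and 27 lower (9.47%), against 0.508% and 10.2%. In G11, 4 were higher (1.4%) and 30 lower (10.5%), against 0.693% and 12.7%. In G12, 3 were higher (1.05%) and 31 lower (10.9%), against 0.537% and 11.8%.

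In G13, 7 joined IDs were higher (2.46%) and 42 lower (14.7%), against 0.996% and 18.6% of plain gene IDs. In G14, 20 were higher (7.02%) and 49 lower (17.2%), against 3.52% and 20.8%. A joined ID is a single row, so plain rows with a reference transcript are the nearer match. Of 15500 such rows 3.84% were higher and 4.92% lower in G3, and the pairs were 6.05% and 17.1% for G14, 2.52% and 12.9% for G13, 1.48% and 7.77% for G12, 1.83% and 9.11% for G11, and 1.41% and 9.31% for G5. The difference between these shares and those of the joined IDs was not tested.

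The split of the calls moved with the scaling. Under a median-of-ratios scaling, which raises the log2 ratios of the G libraries by 0.32 in G13, 0.27 in G12, 0.25 in G14, 0.17 in G11, 0.06 in G5 and 0.04 in G3, the joined IDs split into 35 higher and 34 lower in G14, 23 and 29 in G13, 15 and 19 in G12, and 10 and 19 in G11. In the remaining libraries it moved less, to 15 higher and 14 lower in G3 and 3 and 25 in G5. Falls from the control that are smaller than these shifts, such as those of LDHB in G12 and G13, change sign with the scaling. In TPM the median log2 ratio of the 285 joined IDs was 0.24 in G5, 0.21 in G3, 0.06 in G11, -0.07 in G14, -0.10 in G12 and -0.21 in G13, against 0.19, 0.17, 0.03, -0.04, -0.09 and -0.13 for plain rows with a reference transcript.

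**Figure D4:**
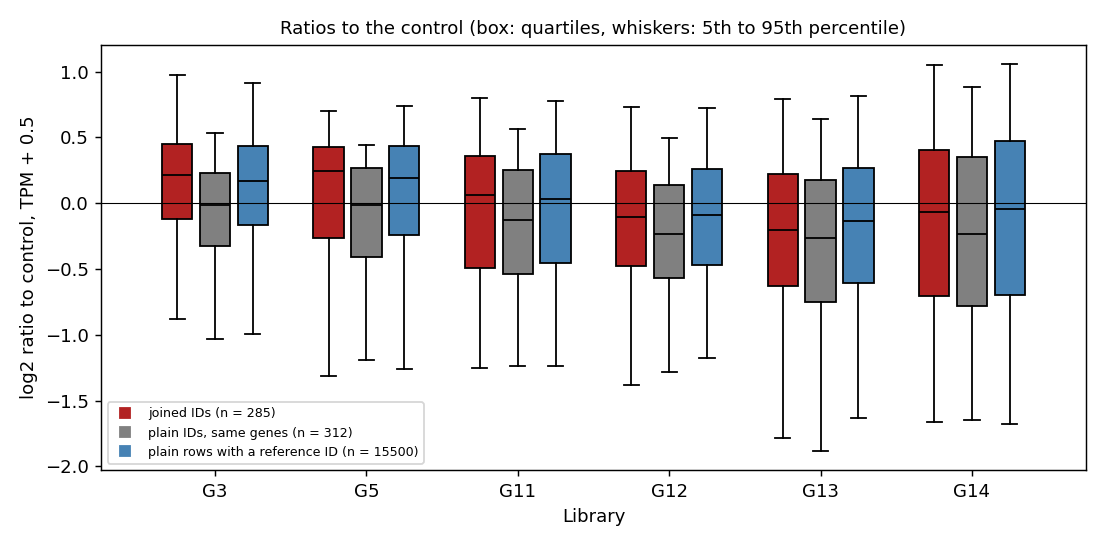
Log2 ratio to the control of TPM + 0.5 in each G library for joined IDs, for plain IDs of the same genes and for plain rows with a reference transcript. Boxes are quartiles with the median marked, and whiskers run from the 5th to the 95th percentile over features, which are not replicates. The medians of joined IDs run from 0.24 in G5 to -0.21 in G13.

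By library, G3 was the highest of the 7 for 30.9% of the joined IDs and G13 the lowest for 31.6%. Among plain gene IDs these shares were 31.4% and 32.6%, and among plain rows with a reference transcript 28.9% and 27.1%. The highest level was at least 2 times the lowest for 43.9% of joined IDs and at least 4 times for 10.9%, against 43.7% and 10.3% of plain gene IDs. For plain rows with a reference transcript these were 44.6% and 8.35%. The differences were not tested.

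The ratios moved with GC content and length, which were available for 282 of the 285. Both were taken from the first transcript of the row that GENCODE 29 held, in any version. The other transcripts of the row can differ from it in both. Across these genes, which are not independent replicates, Spearman's rho of the log2 ratio with GC content was -0.47 in G13, -0.46 in G14, -0.44 in G12, -0.38 in G11, -0.24 in G5 and 0.12 in G3. In G13 the third with the lowest GC content had a median log2 ratio of 0.07 and the third with the highest -0.55, and in G14 these medians were 0.28 and -0.62. With length rho was 0.45 in G3, 0.36 in G5, 0.23 in G14, 0.19 in G11, 0.05 in G12 and -0.04 in G13. All ratios share the control library. The part of GC content and length in the calls was not tested.

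The widest ranges over the libraries belonged to RAVER1, SFPQ, REPIN1 and GTPBP6. RAVER1, an RNA-binding partner of the splicing repressor PTB at chr19:10316215-10333551 on the minus strand, held 118 TPM in G3, 61.6 in G5, 55.4 in the control, 11.1 in G11, 6.03 in G12, 3.44 in G14 and 0.702 in G13. G3 was 167 times G13, where 16 reads were counted. Relative to the control, G13 was 1.27% of it (95% interval 0.721 to 2.07) and G14 6.20% of it (95% interval 4.81 to 7.89), the largest falls among joined IDs in these libraries. Plain RAVER1 rows fell too, from 23.7 TPM in the control to 0.965 in G13 and 1.53 in G14.

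SFPQ encodes a splicing factor rich in proline and glutamine, and its row lies at chr1:35183106-35193163 on the minus strand. It held 74.0 TPM in G3, 7.38 in the control, 3.97 in G5, 3.58 in G14, 0.720 in G11, 0.439 in G13 and 0.375 in G12. These rest on 1321 reads in G3, 124 in the control, 101 in G5, 75 in G14, 15 in G11, 10 in G12 and 10 in G13. Its log2 difference from the control, 3.24 in G3, was the largest rise among joined IDs there, and -2.69 in G11 and -3.17 in G12 were the largest falls.

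REPIN1, a zinc finger protein, held 18.4 TPM in G3, 5.65 in the control, 4.60 in G5, 3.49 in G14, 1.61 in G12, 1.34 in G11 and 0.614 in G13. Its plain rows ran from 0.439 TPM in G13 to 19.4 TPM in G3. GTPBP6, a GTP-binding protein of the pseudoautosomal region, held 13.2 TPM in G3, 3.15 in the control, 1.81 in G5, 1.77 in G14, 1.20 in G11, 0.600 in G12 and 0.395 in G13. All 4 genes were highest in G3 and at under 1 TPM in G13. The GC content, taken from 1 transcript of the row as above, was 64.0% for RAVER1, 64.1% for REPIN1 and 65.8% for GTPBP6, at or above the percentile 97.5 of joined IDs, and 48.8% for SFPQ. The fibroblast markers COL1A1 and COL1A2 also had their highest sum in G3, 38.5 TPM, and their lowest in G13, 4.21 TPM. Only COL1A1 was itself highest in G3, with 30.3 TPM there and 16.4 in the control. COL1A2 was highest in G5, at 13.3 TPM, and its 8.24 TPM in G3 was below the 11.3 TPM of the control. These extremes were not confined to fibroblast markers. The stem cell marker DNMT3B held 68.0 TPM in G3, its highest, and 13.4 in G13, its lowest. The neural marker DCX held 11.6 and 1.62 TPM, also its extremes. No other listed stem cell marker had both extremes there, and TUBB3 was highest in G3 but lowest in G14. The part of GC content or of other cells in these ranges was not tested.

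The largest fall in G3 was that of LAMTOR5, a subunit of the Ragulator complex on lysosomes, with 48.9 TPM in the control, 31.8 in G12, 31.5 in G13, 22.3 in G11, 17.7 in G14, 16.0 in G5 and 15.6 in G3. The largest fall in G5 was that of GPX4, the peroxidase that protects membrane lipids, with 163 TPM in the control, 68.9 in G13, 68.7 in G12, 67.9 in G3, 50.02 in G11, 45.9 in G5 and 32.8 in G14. For GPX4 all 6 G libraries were below the control, and G14 was 20.1% of it (95% interval 18.5 to 21.9). The largest rise in G11 was that of BMAL1, a transcription factor of the circadian clock, with 8 reads in the control and 46 in G11.

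The joined share of a gene was mostly steady. The median range over the 7 libraries was 3.44 percentage points in the 308 genes, and it was at least 10 points in 54, at least 20 in 16 and at least 30 in 8. The widest ranges were those of PGRMC2, SFPQ, RAVER1 and ACOT7. In PGRMC2, a membrane protein that carries heme, the joined share was 83.0% (80.2 to 85.4) in the control, 92.1% (90.6 to 93.3) in G3 and 51.3% (47.5 to 55.2) in G13. The joined level ran from 14.5 TPM in G13 to 82.6 TPM in G3 and the plain level from 7.12 TPM in G3 to 14.4 TPM in G14.

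ACOT7, an acyl-CoA thioesterase at chr1:6264267-6393757 on the minus strand, held 22.3 TPM in G14, 33.1 in G13, 34.2 in G12, 42.2 in G11, 49.6 in G5, 77.4 in the control and 78.7 in G3 under its joined ID. Its plain rows held 39.1 TPM in G13, 34.1 in G14, 32.6 in G12, 30.6 in G11, 28.4 in G3, 26.7 in G5 and 26.2 in the control. The joined level was high in the control and G3 and lowest in G14, while the plain level was highest in G13. The joined share was 74.7% (72.6 to 76.7) in the control and 39.5% (36.8 to 42.4) in G14. Of the plain reads 99.1% were of a single reference transcript, whose listed upper end, the 5′ end on this strand, is 6385823, against 6393757 for the joined row. Thus ACOT7 RNAs with different listed starts stood under different IDs. In SFPQ the share ran from 55.6% to 92.6% and in RAVER1 from 42.1% to 79.1%, on counts as low as 10 and 16 reads.

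**Figure D5:**
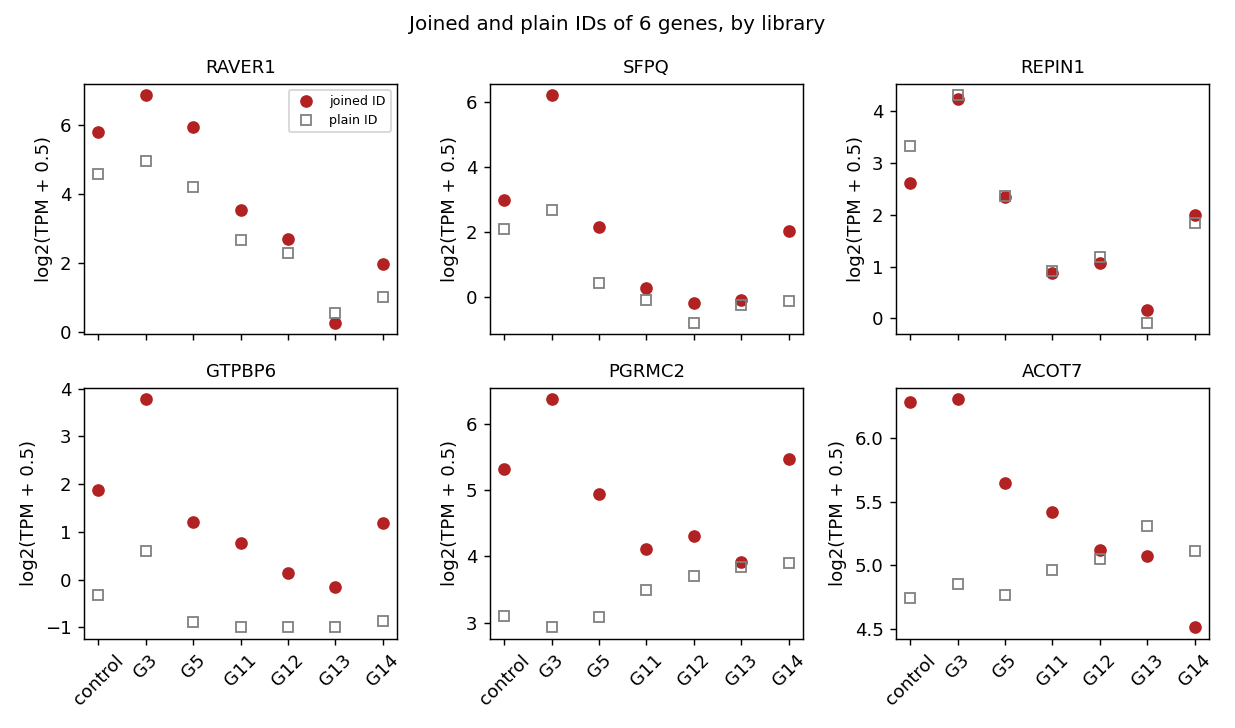
log2(TPM + 0.5) of the joined ID (filled red) and of the plain rows (open grey) in each library for RAVER1, SFPQ, REPIN1, GTPBP6, PGRMC2 and ACOT7. The scales differ between panels. The first 4 genes peak in G3 for both kinds of ID, while in ACOT7 the joined points fall from 77.4 TPM in the control to 22.3 TPM in G14 and the plain points stay between 26.2 and 39.1 TPM.

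Within genes, joined and plain IDs were compared directly where both had a mean of at least 1 TPM, which gave 245 joined IDs of 229 genes. The log2 ratio to the control of the joined ID minus that of the plain ID had a median of 0.13 in G13, 0.14 in G12, 0.15 in G14, 0.17 in G11, 0.23 in G5 and 0.26 in G3. It was above 0 for 184 of 245 in G3 and for 144 in G13. The plain IDs of the 380 genes included 15827 hashed rows, of which 5919 to 7063 had reads in a G library. All 15827 had reads in the control, which follows from the listing, because every listed row had at least 1 control read. Hashed rows found in G libraries alone are not listed, so the plain sums of the G libraries leave them out. The part of this listing in the joined minus plain ratio was not tested. Hashed rows held 19.6% of plain TPM in the control and 15.9% to 17.2% in the G libraries. With plain rows of reference transcripts only, the median over the 6 libraries was 0.0058 in place of 0.16, and with rows of at least 1 TPM it was -0.03. Only 168 and 213 joined IDs remained under these settings in place of 245, so the change also reflects which genes were compared.

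Leaving the joined rows out changed which genes passed 2-fold. In the 308 genes the call from plain rows differed from the call on the full gene for 22 in G14, 17 in G13, 16 in G3, 14 in G12, 10 in G5 and 9 in G11. No gene was 2-fold higher on one count and 2-fold lower on the other. The numbers of calls were alike, 18 and 18 in G3 and 66 and 66 in G14 on full and plain counts (over all genes of at least 5 TPM, 7.03% and 22.8% were called), although 8 calls were gained and 8 lost in G3 and 11 and 11 in G14. The sign of the log2 ratio differed for 66 genes in G3 and for 30 in G13. The full and plain log2 ratios of a gene mostly lay close together, with a median absolute difference of 0.066 in G3 and 0.054 in G13. The plain sums of the G libraries also leave out hashed rows found in G libraries alone, and the part of this in the changed calls and signs was not tested.

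A list of 24 genes of 3′-end processing and termination was counted because the joined transcripts often differ at that end. Of the 24, 23 were listed, none had a joined ID and 18 had a mean of at least 5 TPM. At least 2-fold higher or lower were 1 and 3 in G14, 0 and 4 in G13, 0 and 2 in G12, 1 and 3 in G11, 1 and 1 in G5, and 1 and 0 in G3, against 22.8%, 15.6%, 9.33%, 11.1%, 10.7% and 7.03% of 7877 genes in either direction. The median log2 ratio of the 18 was 0.25 in G3 and -0.14 in G13, beside 0.12 and -0.21 over all genes. The most abundant were PAPOLA, the poly(A) polymerase, with 571 TPM in G3 to 959 TPM in G13, and CPSF3, the cleavage endonuclease, with 230.5 TPM in the control to 374 TPM in G14.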

How the data were processed

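Full-length reads of polyadenylated RNA were counted in 7 libraries. Per the labels' protocols, cDNA was joined into 8-fold arrays, sequenced on the Revio system and split into reads in software. Per the submitters' processing notes, minimap2 2.17 and GRCh38/hg38 were used. The counting tool and the annotation are not given in the sources used here. The deposited count of each isoform row, made by the authors, is a whole number of reads. The deposited TPM equals the count scaled to the library total, to within 0.0101 TPM, with no length term. Empty cells were read as 0.

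Rows were grouped with pandas 2.3.3 and numpy 2.4.6 (Python 3.11.15). Levels were compared as log2(TPM + 0.5), which understates ratios of low rows. Intervals are Wilson for shares and Clopper-Pearson for ratios (scipy 1.17.1), and 3 reads were the floor. The calculation was tested on simulated data. Row starts were read as zero-based and raised by 1 base, so row ends may be off by 1. Structures and sequences are from GENCODE 29, which held a transcript of 432 of the 440 rows, some in an older version.

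Members and lists were chosen with earlier results of these data known. Named genes are the 12 highest joined IDs, the 5 with the highest share, the 4 with the widest range of level and of share, the largest rise and fall per G library and the 3 genes with most joined IDs; 1 of these is not reported here. Examples of gene classes and the rows of 2 genes or of the pseudoautosomal region were added after values were seen.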

Additional observations from a re-analysis of the deposited data

How the results depend on the processing

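Each choice was changed alone. With rows of at least 1 TPM the joined share of listed reads, 3.03% as the median library, became 3.12%, and with reference rows 3.43%. The joined share of the reads of genes with both kinds of row was 51.0% as the median library. It became 60.1% and 49.7% under these settings, and 38.6% as the median over genes of at least 5 TPM. MCM3, PSMC3 and DDOST, for example, had no plain row with a reference transcript. The genes with both kinds of row thus differ between settings, and these shares are not for a fixed set of genes. Counts of joined IDs at least 2-fold from the control, 29 in G5, 34 in G12 and 49 in G13, were 19, 22 and 32 with a minimum of 5 TPM, where 190 rather than 285 IDs were tested. As a share of the IDs tested, these were 11.9% and 11.6% in G12 and 17.2% and 16.8% in G13. Against the median of the other 6 libraries G3 had 33 higher and 0 lower (13 and 15 against the control), and the counts were 11 in G5, 4 in G11 (34 against the control), 12 in G12, 28 in G13 and 9 in G14 (69 against the control). The median joined minus plain log2 ratio, 0.16 over 245 joined IDs, was 0.012 against the other 6 libraries. It was 0.0058 with reference rows, where 168 joined IDs remained, and reversed to -0.028 with rows of at least 1 TPM, where 213 remained. In single libraries it reversed with rows of at least 1 TPM in G12 (-0.082), G13 (-0.062) and G14 (-0.056), with reference rows in G13 (-0.046) and G14 (-0.023), and against the other 6 libraries in G12 (-0.011) and G13 (-0.032). The cause was not tested. Without 1 of the 6 G libraries at a time it was 0.15 to 0.17. No paired analysis was possible because each group has 1 library. Row counts of at most 3 reads limit 63 to 92 of the 440 joined IDs in a library.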
